A study of Mus musculus with 6 samples.

Results

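The genes described here are Trp53, which encodes the tumour suppressor p53, and 9 genes known as direct p53 targets: Mdm2, Cdkn1a, Ccng1, Btg2, Tnfrsf10b, Sesn1, Sesn2, Bbc3 and Bax. They were taken by symbol from a table of read counts for 16000 genes. All 10 were found there, and all 10 were among the 11972 genes with enough counts to be tested. The cells were NIH3T3, a long-established line of mouse embryonic fibroblasts, and every sample had been starved of serum. In 3 libraries the cells are labelled wild type (WT) and in the other 3 they are labelled Rai16 KO, a knockout of a gene listed in the table as Fam160b2. The sources used here do not give how the knockout was made, whether it is 1 clone, or how long serum was withheld. Nor do the labels tell whether libraries of the same group are separate cultures, so the p-values measure a spread between libraries that may be only technical. In bulk RNA, fewer cells of a kind and less RNA per cell cannot be told apart.

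The p53 protein is a transcription factor that is held at a low level by the ubiquitin ligase Mdm2 and held inactive by its relative Mdm4. DNA damage and other stresses release it, and Mdm2 is itself one of its targets, which closes a feedback loop. Targets fall into classes: genes that stop the cell cycle (Cdkn1a, Btg2), genes that trigger apoptosis (Bbc3, Bax, Tnfrsf10b), and sestrins, which restrain the growth kinase mTORC1 and support antioxidant defence. p53 activity is regulated mostly through protein stability and modification, so the level of Trp53 RNA is not a measure of it, and no protein was measured here. NIH3T3 cells are known to lack the Cdkn2a locus, whose product ARF blocks Mdm2. Cdkn2a was not analysed here.

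Library totals lay between 16741607 and 18368760 counts. The first principal component separated knockout from wild type, and the second set knockout replicate 2 apart from the other knockout libraries. Fibroblast markers were present in all libraries: each of 10 had a mean over 1 FPKM. Summed muscle markers (3 of 4 listed) lay between 0.242 and 0.424 FPKM in wild type, at 0.281 and 0.341 FPKM in knockout replicates 1 and 3, and at 39.0 FPKM in knockout replicate 2. The creatine kinase gene Ckm had 405 counts in knockout replicate 2 and 0 in each other library. Epithelial markers (4 of 6 listed) summed to between 0.966 and 1.18 FPKM in wild type and between 2.50 and 3.203 FPKM in knockout. Leukocyte (5 of 6 listed), endothelial and neural markers (4 of 4 each) summed to at most 4.50 FPKM, 1.003 FPKM and 0.685 FPKM in any library. The part of these transcripts in the results on the p53 genes was not tested. The targeted gene itself was not called. It averaged 23.8 ± 1.49 CPM (counts scaled to the library total) in the wild-type libraries and 21.9 ± 0.395 CPM in the knockout libraries (SD, n = 3 each; adjusted p = 0.184 in edgeR's quasi-likelihood test). Its groups did not overlap, by a narrow margin: the lowest wild-type library had 22.5 CPM and the highest knockout library 22.3 CPM. Of all genes tested, 33.5% were lower in knockout without overlap. A count over a whole gene does not check a small lesion.

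Between genes, levels were compared as FPKM, the authors' count scaled to gene length and library total. In wild-type cells Trp53 was the most abundant of the 10 at 99.2 ± 0.337 FPKM (SD, n = 3), above 95.6% of all genes tested. Bax, at 94.0 ± 1.96 FPKM, and Cdkn1a, at 87.7 ± 2.27 FPKM, came next. Ccng1 (26.5 ± 1.70 FPKM), Sesn2 (19.6 ± 0.246 FPKM) and Mdm2 (16.9 ± 0.276 FPKM) formed a middle group. Bbc3, Sesn1, Tnfrsf10b and Btg2 were the lowest, from 7.19 ± 0.585 FPKM for Bbc3 down to 2.28 ± 0.315 FPKM for Btg2. Neighbours in this order did not overlap between libraries except Bbc3 and Sesn1. The order depends on the 1 length used per gene, which the FPKM imply is 928 bases for Bax and 7409 for Mdm2. In mean wild-type CPM, Bax (87.6) lay below Cdkn1a (179), Mdm2 (126) and Ccng1 (92.8). In these starved wild-type cells Bax RNA exceeded, in FPKM, that of 95.4% of genes tested, and Btg2 RNA that of 18.9%.

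**Figure D1:**
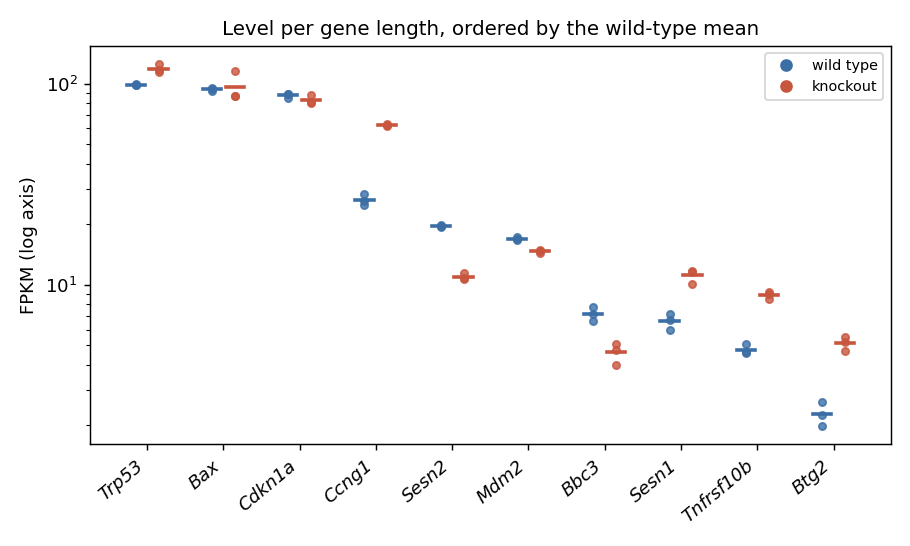
FPKM of each gene (log axis) in the 3 wild-type (blue) and 3 knockout (red) libraries, with the group mean as a bar and the genes ordered by their wild-type mean. Trp53, Bax and Cdkn1a lie highest in both groups, and Ccng1, Sesn1, Tnfrsf10b and Btg2 lie higher in knockout than in wild type.

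The order changed in knockout cells. Trp53 (119 ± 5.93 FPKM), Bax (96.6 ± 16.7 FPKM) and Cdkn1a (83.2 ± 3.997 FPKM) still led, but here the libraries of Trp53 and Bax overlapped, as did those of Bax and Cdkn1a. Ccng1 reached 62.3 ± 0.612 FPKM and Mdm2 stood at 14.7 ± 0.301 FPKM. The sestrins met: Sesn1 averaged 11.2 ± 0.916 FPKM and Sesn2 10.98 ± 0.449 FPKM, and their libraries overlapped. Bbc3, at 4.63 ± 0.563 FPKM, became the lowest of the 10 and overlapped with Btg2 at 5.14 ± 0.409 FPKM.

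The next question was which of these genes differed between knockout and wild type. Counts went into edgeR's quasi-likelihood test, p-values were adjusted by Benjamini and Hochberg's method across the 11972 genes, and a gene with an adjusted value under 0.05 was called. Ccng1, Btg2, Tnfrsf10b, Sesn1 and Trp53 rose in knockout, Sesn2, Bbc3 and Mdm2 fell, and Cdkn1a and Bax were not called. That is 8 of 10 genes called, in a comparison where 59.6% of all genes were called, 30.5% higher and 29.2% lower in knockout. In CPM, the same 8 genes had groups with no overlap, 5 higher and 3 lower in knockout, against 67.6% of all genes (34.1% higher, 33.5% lower). The median log2 fold change was 0.14 over the 10 genes and 0.0028 over all genes tested. Of the 10 genes, 2 (Ccng1 and Btg2) changed by at least 2-fold, as did 1320 of the 11972 genes tested. The 8 calls kept their direction and their side of the threshold in each of 13 other fits, which changed scaling, tool, filter or pseudocount, added a replicate block or left out 1 library.

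**Figure D2:**
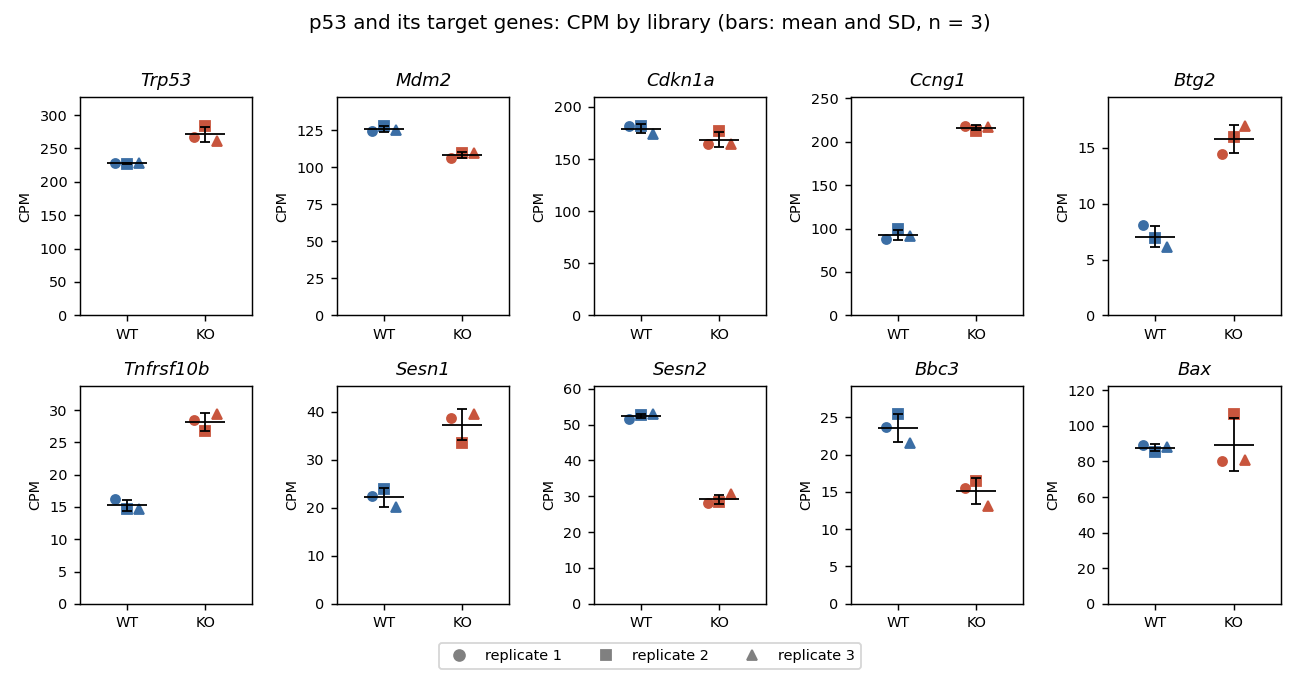
CPM of each gene by library (circle, square and triangle for replicates 1, 2 and 3), with mean and SD of the 3 wild-type (blue) and 3 knockout (red) libraries; each axis starts at 0. The groups are apart for 8 genes and overlap for Cdkn1a and for Bax, where knockout replicate 2 lies above all other libraries at 107 CPM.

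Among the genes that set p53 itself, Trp53 RNA was slightly higher in knockout. It stood at 229, 227 and 228 CPM in wild-type replicates 1, 2 and 3 and at 268, 284 and 261 CPM in knockout replicates 1, 2 and 3. Every knockout library lay above every wild-type library, and the wild-type libraries hardly differed from each other. Their SD, 0.41% of the mean, was smaller than the counting error of a single wild-type library, 1.6%. The fold was 1.19 (95% interval 1.09 to 1.30; log2 fold change 0.25 ± 0.056 SE, adjusted p = 0.00405, edgeR). Without knockout replicate 2 the log2 fold change was 0.22.

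Mdm2, the ligase that marks p53 for degradation, fell. Its CPM was 124, 128 and 125 in wild type and 106, 110 and 110 in knockout, again without overlap. The knockout level was 0.861 of wild type (95% interval 0.792 to 0.935; log2 fold change −0.22 ± 0.053 SE, adjusted p = 0.00659, edgeR). Mdm4, the relative that binds p53 without degrading it, fell from 233 ± 5.82 CPM to 134 ± 19.7 CPM (SD over 3 libraries each). On the log2 scale it fell by 0.80 ± 0.0996 (SE), with an adjusted p of 1.46e-04 in edgeR. Both negative regulators were thus lower in knockout and Trp53 was higher.

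Ratios within a library do not depend on the scaling between libraries. Mdm2 to Trp53 was 0.168, 0.174 and 0.170 in wild type and 0.122, 0.119 and 0.130 in knockout. Mdm2 to Mdm4 was 0.513, 0.551 and 0.542 in wild type and 0.711, 0.975 and 0.761 in knockout, with knockout replicate 2 the highest. Neither ratio overlapped between groups. For each of 4 ratios examined the exact two-sided permutation test gave p = 0.1 (0.1 after adjustment over the 4), the smallest that 3 against 3 allows, so none can pass 0.05.

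**Figure D3:**
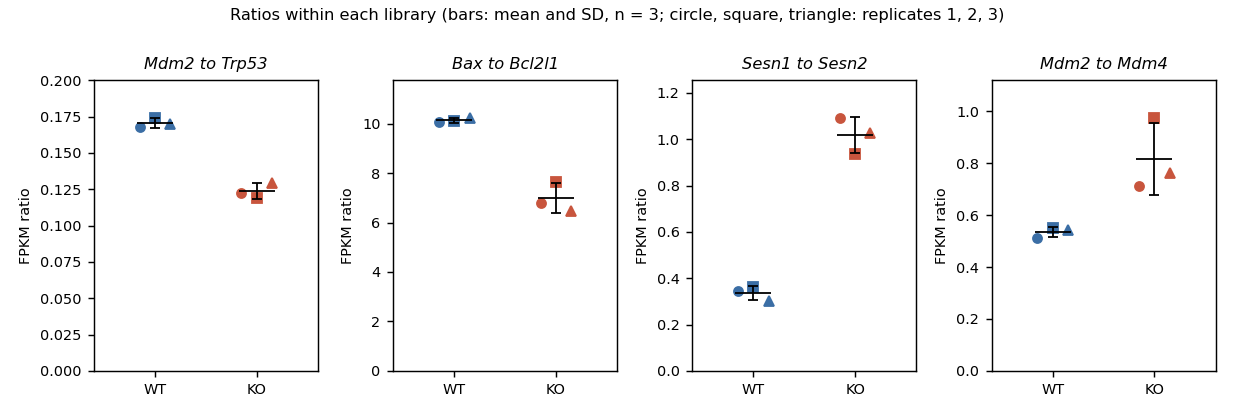
FPKM ratios within each library, with mean and SD of 3 wild-type (blue) and 3 knockout (red) libraries and axes from 0. Mdm2 to Trp53 and Bax to Bcl2l1 are lower in knockout, Sesn1 to Sesn2 and Mdm2 to Mdm4 are higher, and no ratio overlaps between groups.

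Regulators and cofactors of p53 moved in both directions. Of 30 tested genes on a list of 32, 12 rose and 8 fell, with a median log2 fold change of 0.01. The share called was 66.7%, near the 59.6% of all genes. Beside Mdm4, the ubiquitin ligase gene Cop1 fell by 0.80 ± 0.061 (SE) and the damage kinase gene Atr by 0.70 ± 0.11 on the log2 scale. The arginine methyltransferase gene Prmt5 rose by 0.49 ± 0.068 and Trim24, a ligase that acts on p53, by 0.58 ± 0.079. Wrap53, the immediate neighbour of Trp53, rose by 0.46 ± 0.11. The p53 relative Trp63 was barely detected, with 20 counts over the wild-type and 62 over the knockout libraries (log2 fold change 1.53 ± 0.44). Trp73 was not analysed here.

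The arrest genes split. Cdkn1a encodes p21, the inhibitor of cyclin-dependent kinases through which p53 halts the cell cycle. Its CPM was 182, 182 and 174 in wild type and 165, 177 and 165 in knockout. Knockout replicate 2 lay inside the wild-type range and the other knockout libraries below it. On the log2 scale the difference was −0.09 ± 0.058 SE (95% interval −0.22 to 0.04, adjusted p = 0.216, edgeR), which leaves any rise above 1.03-fold outside the interval. Without knockout replicate 2 it was −0.12 and passed (adjusted p = 0.00181). In that fit all 10 p53 genes were called, 5 in each direction, where 71.1% of all genes were called and 35.1% were lower.

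Ccng1 encodes cyclin G1, which recruits a phosphatase to Mdm2. Its log2 fold change was the largest of the 10 when all 6 libraries were used. That of Btg2 was larger without wild-type replicate 1 (1.27 against 1.18) or without knockout replicate 1 (1.22 against 1.21). Ccng1 had 87.6, 99.2 and 91.7 CPM in wild type and 219, 213 and 218 CPM in knockout. Every knockout library lay far above every wild-type library, and the knockout libraries lay close together. The SD of the knockout libraries, 1.39% of their mean, was below the counting error of a single one, 1.59%. The fold was 2.33 (95% interval 2.11 to 2.57; log2 fold change 1.22 ± 0.063 SE, adjusted p = 7.68e-07, edgeR), a size that ranked 980 among the 11972 genes. Its relative Ccng2 had 53.1 ± 1.17 CPM in wild-type cells and 57.8 ± 2.08 CPM in knockout cells and was not called (adjusted p = 0.095, edgeR).

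Btg2, an antiproliferative partner of the CCR4-NOT deadenylase, rose from a low level. Its counts were 140, 116 and 107 in wild type and 266, 293 and 302 in knockout, which is 8.09, 6.95 and 6.15 CPM against 14.4, 16.0 and 17.0 CPM. The groups were far apart although counting error alone came to 9.09% of a single wild-type library's value. The fold was 2.23 (95% interval 1.85 to 2.71; log2 fold change 1.16 ± 0.12 SE, adjusted p = 5.18e-05, edgeR). Its relatives Btg1 and Btg3 fell, Btg1 from 554 ± 5.08 to 368 ± 27.9 CPM and Btg3 from 17.2 ± 2.25 to 2.10 ± 0.589 CPM. Tob1 rose by 0.39 ± 0.092 on the log2 scale.

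Promoter sequence was set beside these changes. RefSeq windows of 300 bases (250 before and 50 after the start, build GRCm38.p6) were at hand for 9 of the 10 genes, 13 windows in all because some genes have several starts. They were searched on both strands for the p53 decamer consensus, the 10-base unit of the p53 response element. It was present in 6 of the 13 windows and in 8.36% of all windows. A full site was taken as a pair of decamers 0 to 13 bases apart, with the C and G of each core kept and at most 2 mismatches in all. Full sites were found in 4 of the 13 windows and in 4.09% of all 32851 windows. These genes were listed because they are p53 targets, so this is a description. The 4 windows are shown, each as the 250 bases before the start, because they hold a match in genes that rose (Ccng1, Sesn1) and in genes that were not called (Cdkn1a, Bax). Capitals mark the decamers of full sites. They lie at chr17:29090729-29090978 (plus strand) for the upstream start of Cdkn1a, chr11:40755287-40755536 (minus) for Ccng1, chr10:41887189-41887438 (plus) for the downstream start of Sesn1, and chr7:45466899-45467148 (minus) for Bax.
Cdkn1a: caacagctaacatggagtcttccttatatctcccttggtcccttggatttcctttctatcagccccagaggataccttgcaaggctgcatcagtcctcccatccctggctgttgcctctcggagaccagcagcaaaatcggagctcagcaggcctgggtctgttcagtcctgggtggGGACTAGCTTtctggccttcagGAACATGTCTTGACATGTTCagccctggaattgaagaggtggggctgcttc
Ccng1: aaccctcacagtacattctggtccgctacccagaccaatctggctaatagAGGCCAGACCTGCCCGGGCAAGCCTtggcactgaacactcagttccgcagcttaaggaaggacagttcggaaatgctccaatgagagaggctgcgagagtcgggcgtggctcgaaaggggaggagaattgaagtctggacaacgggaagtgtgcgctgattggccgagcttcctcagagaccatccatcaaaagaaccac
Sesn1: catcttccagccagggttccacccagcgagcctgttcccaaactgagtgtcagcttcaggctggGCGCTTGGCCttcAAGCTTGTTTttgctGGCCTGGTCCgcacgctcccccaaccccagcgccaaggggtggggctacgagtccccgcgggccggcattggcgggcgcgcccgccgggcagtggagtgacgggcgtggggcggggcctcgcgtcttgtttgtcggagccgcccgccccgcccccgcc
Bax: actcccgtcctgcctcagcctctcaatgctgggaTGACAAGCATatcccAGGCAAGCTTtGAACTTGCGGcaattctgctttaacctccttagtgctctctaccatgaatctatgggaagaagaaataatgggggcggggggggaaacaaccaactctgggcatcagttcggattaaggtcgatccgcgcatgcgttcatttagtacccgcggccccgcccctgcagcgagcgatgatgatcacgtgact

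Cdkn1a held the closest matches. A pair with 0 mismatches had a spacer of 12 bases, and a second pair, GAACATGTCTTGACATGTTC, had no spacer and 1 mismatch. This second pair ended 31 bases before the upstream start of Cdkn1a. The windows of the other Cdkn1a start and the other Sesn1 start held no decamer and no full site. Only 0.0731% of all windows hold a pair with 0 mismatches. The best pair of Ccng1, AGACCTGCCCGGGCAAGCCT, had 1 mismatch, and those of Sesn1 and Bax had 2. With at most 1 mismatch, 2 of the 13 windows and 0.627% of all windows held a site. A match of letters does not show that p53 binds there, and sites in introns or farther upstream, such as the intronic element of Mdm2, lie outside these windows.

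Of the apoptosis genes, Tnfrsf10b rose, Bbc3 fell and Bax was not called. Tnfrsf10b encodes the death receptor for the ligand TRAIL. It had 16.2, 14.7 and 14.8 CPM in wild type and 28.5, 26.7 and 29.4 CPM in knockout, with no overlap. The fold was 1.85 (95% interval 1.63 to 2.10; log2 fold change 0.89 ± 0.079 SE, adjusted p = 2.04e-05, edgeR). Its ligand gene Tnfsf10, named after its value was seen, had 115 counts over the wild-type and 14 over the knockout libraries (log2 fold change −3.09 ± 0.33, adjusted p = 6.18e-05, edgeR). Receptor and ligand RNA thus moved in opposite directions, the ligand at a level near 2 CPM or less.

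Bbc3 encodes PUMA, a BH3-only protein that neutralises survival members of the BCL2 family. Its CPM was 23.6, 25.4 and 21.6 in wild type and 15.5, 16.5 and 13.1 in knockout. Every knockout library was below every wild-type library. The knockout level was 0.640 of wild type (95% interval 0.542 to 0.754; log2 fold change −0.64 ± 0.11 SE, adjusted p = 7.13e-04, edgeR).

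Bax encodes the effector that opens the outer mitochondrial membrane. It had 89.1, 85.5 and 88.3 CPM in wild type and 80.4, 107 and 81.0 CPM in knockout. Replicate 2 of the knockout was the highest of all 6 libraries and the other knockout libraries were the lowest. The log2 fold change was 0.03 ± 0.11 SE (95% interval −0.21 to 0.27, adjusted p = 0.833, edgeR). Without knockout replicate 2, the library with the muscle transcripts, the sign turned and the gene passed (log2 fold change −0.12, adjusted p = 0.0163). The part of the muscle transcripts in the Bax value was not tested.

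Other members of the BCL2 family gave 5 rises and 2 falls among 13 tested genes (of 19 on the list), with a median log2 fold change of 0.14. The share called, 53.8%, was near the 59.6% of all genes. The survival gene Bcl2l1, encoding BCL-XL, rose from 51.3 ± 1.22 to 75.7 ± 6.37 CPM, and the proapoptotic genes Bad and Bid rose by 0.66 ± 0.084 and 0.53 ± 0.078 on the log2 scale. Bcl2l2, another survival gene, fell by 0.47 ± 0.082 and the mitophagy receptor gene Bnip3l by 0.35 ± 0.075. Bax to Bcl2l1, an effector set against an inhibitor, was 10.1, 10.1 and 10.2 in FPKM in wild type and 6.80, 7.65 and 6.47 in knockout. This ratio was lower in each knockout library, replicate 2 included.

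Downstream of the receptor, 5 genes of the caspase and death receptor route rose and 7 fell among 18 (median −0.02), so that 66.7% were called against 59.6% of all genes. The inhibitor Cflar (FLIP), which competes with caspase 8 at the receptor, fell from 152 ± 2.99 to 76.6 ± 10.9 CPM. The caspase inhibitor gene Xiap fell by 0.55 ± 0.13 and Casp2 by 0.54 ± 0.070 on the log2 scale. The adaptor gene Tradd rose by 0.59 ± 0.13, and the mitotic survivin gene Birc5 by 0.81 ± 0.11.

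The sestrin genes moved apart. Sesn1 had 22.4, 24.0 and 20.05 CPM in wild type and 38.7, 33.5 and 39.5 CPM in knockout. It was higher in every knockout library, 1.68-fold (95% interval 1.45 to 1.95; log2 fold change 0.75 ± 0.093 SE, adjusted p = 1.44e-04, edgeR). Sesn2 had 51.7, 52.5 and 52.9 CPM in wild type and 28.2, 28.4 and 30.6 CPM in knockout. It was lower in every knockout library, at 0.556 of wild type (95% interval 0.505 to 0.612; log2 fold change −0.85 ± 0.061 SE, adjusted p = 5.74e-06, edgeR).

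The ratio Sesn1 to Sesn2 accordingly went from 0.345, 0.363 and 0.302 in wild type to 1.09, 0.938 and 1.03 in knockout. Per gene length, Sesn1 was the scarcer of the pair in every wild-type library and near Sesn2 in every knockout library. Sesn3, the other family member and a known FOXO target, averaged 55.1 ± 3.93 CPM without the knockout and 53.4 ± 19.5 CPM with it and was not called (adjusted p = 0.876, edgeR). The FOXO factor genes themselves were mixed: Foxo1 rose by 0.66 ± 0.088 on the log2 scale, Foxo3 fell by 0.29 ± 0.093, and Foxo4 (−0.09 ± 0.057) and Foxo6 (−0.52 ± 0.30) were not called. Their median was −0.19.

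Sesn2 is known to respond to the stress factor ATF4 as well as to p53. Of 10 genes of the ATF4 and CHOP axis 9 fell and 0 rose, with a median log2 fold change of −1.25 (29.2% of all genes fell). Trib3 fell from 89.9 ± 1.20 to 12.8 ± 1.38 CPM, Chac1 from 68.5 ± 7.06 to 15.03 ± 0.290 CPM and Atf5 from 331 ± 12.2 to 109 ± 5.70 CPM. The part of this axis in the change of Sesn2, or of any other p53 target, was not tested. A list of sestrin partners joins Sesn3, the mTORC1 pathway and antioxidant genes (Prdx1, Srxn1, Keap1, Sqstm1). Of its 22 tested genes 3 rose and 7 fell (median −0.04), a called share of 45.5% against 59.6% of all genes. Seh1l and Sec13, which belong to the same GATOR2 complex, went opposite ways, by −0.59 ± 0.065 and 0.50 ± 0.077. The mTORC1 activator gene Rheb fell by 0.56 ± 0.074, the peroxiredoxin gene Prdx1 fell by 0.49 ± 0.092, and the sulfiredoxin gene Srxn1 rose by 0.24 ± 0.059.

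Further known p53 targets were counted from a list of 52, of which 45 were tested. Of these, 19 rose (42.2%, against 30.5% of all genes) and 8 fell (17.8%, against 29.2%), with a median log2 fold change of 0.18. The share called in either direction, 60.0%, was near the 59.6% of all genes. Thbs1, encoding thrombospondin 1, had the largest rise, from 208 ± 8.81 to 3484 ± 539 CPM. The epoxide hydrolase gene Ephx1 and the adenylate kinase gene Ak1 rose by 1.08 ± 0.074 and 1.07 ± 0.063 on the log2 scale, close to Ccng1. Gadd45a, a damage-response gene, fell from 148 ± 3.36 to 49.0 ± 4.05 CPM, the tetraspanin gene Cd82 fell by 0.96 ± 0.079, and Ddit4, an mTORC1 inhibitor that also answers to ATF4, fell by 0.82 ± 0.068. The p53 phosphatase gene Ppm1d was not called (0.18 ± 0.073, adjusted p = 0.0585, edgeR). The genes Pmaip1, Perp and Gdf15 had 0 counts in wild type and 2, 3 and 3 in knockout and were not tested, nor was Ckm.

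**Figure D4:**
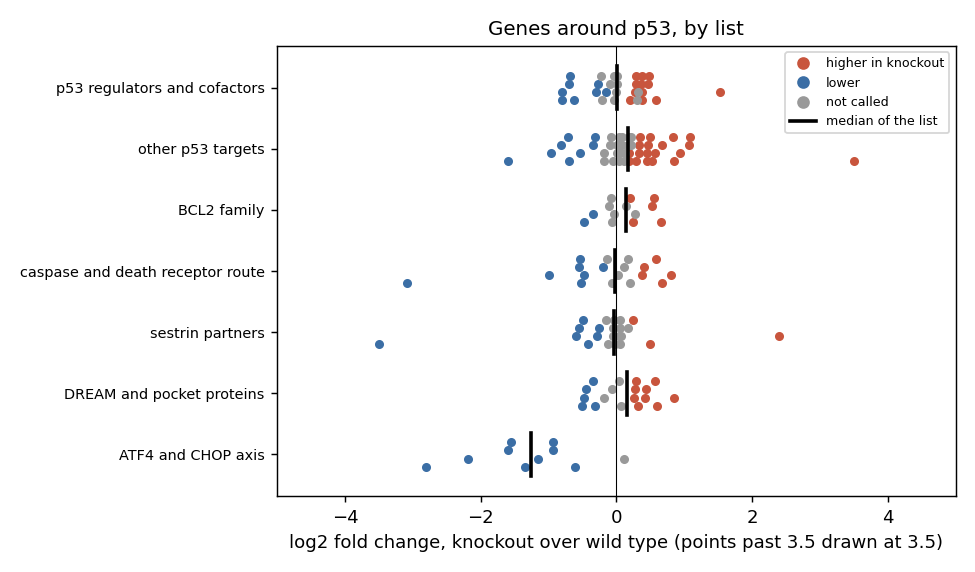
Log2 fold change of the tested genes of 7 lists, coloured by call (red higher, blue lower in knockout, grey not called), with the list median as a bar; points past 3.5 are drawn at 3.5. The ATF4 and CHOP axis lies lowest with a median of −1.25, and the other medians lie between −0.04 and 0.18.

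The list gene whose profile was nearest to each of the 10 was found by the root mean square difference of log2 CPM, centred over the 6 libraries, among 52 candidates that were other p53 genes or further targets. Ccng1 was nearest to Ak1 (0.0966), Btg2 to Ephx1 (0.140), Tnfrsf10b to the mitotic gene Gtse1 (0.107) and Sesn1 to Tnfrsf10b (0.115). Sesn2 was nearest to Ddit4 (0.0881) and Bbc3 to the autophagy gene Dram1 (0.119). Trp53 was nearest to Ppm1d (0.0538), Mdm2 to Bhlhe40 (0.0743), Cdkn1a to Sat1 (0.0303) and Bax to Siva1 (0.0724). With 2 groups of libraries, likeness mainly reflects a similar difference between them.

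Position on the chromosome was examined next. For each gene the 10 tested genes on either side were taken, by their order in the RefSeq gene table. On chromosome 11, which holds Trp53 and Ccng1, 443 of 976 genes rose (45.4%) and 120 fell. The log2 fold change of Trp53 was 0.25 and the median of its 20 neighbours 0.30, with 12 higher and 1 lower. The adjacent genes Wrap53 and Sat2 rose by 0.46 and 1.07. Ccng1 lay at 1.22 and the median of its neighbours at 0.10, between Nudcd2 (0.07) and Pttg1 (0.50).

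Btg2 rose inside a falling region. On chromosome 1, 494 of 689 genes fell (71.7%) and 39 rose, with a median log2 fold change of −0.49. Of the 20 neighbours of Btg2, 17 fell and 1 rose, with a median of −0.75, or −0.58 over the nearest 10. The adjacent genes were Prelp (−1.11) and Chil1 (−0.998). Mdm4 lies on the same chromosome, and its change of −0.80 was close to the median of its own neighbours, −0.63, of which 15 fell and 3 rose. Mdm4 is itself among the 20 neighbours of Btg2 and the windows share genes, so these counts are not separate.

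Tnfrsf10b lies on chromosome 14, and 15 tested genes separate it from the targeted gene Fam160b2. Of these 15, 11 fell and 2 rose, with a median log2 fold change of −0.56. On the whole chromosome 166 of 400 genes fell (41.5%) and 139 rose (34.8%). Around Tnfrsf10b itself 13 of 20 neighbours fell and 2 rose (median −0.44), so that its rise of 0.89 ran against most of its surroundings. Its adjacent genes were Chmp7 (−0.24) and Rhobtb2 (0.06). Around Fam160b2, 16 of 20 neighbours fell and 2 rose (median −0.78). The genes between Tnfrsf10b and Fam160b2 and the neighbours of each are partly the same genes, so these counts are not separate.

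Bbc3 and Bax, both on chromosome 7, had neighbours with medians of −0.29 and −0.30. On that chromosome 34.7% of genes fell and 23.6% rose. For Bbc3 11 neighbours fell and 3 rose, Ccdc9 (−0.55) and Sae1 (−0.22) among the former, so its own change of −0.64 had the direction of its window. For Bax 10 fell and 1 rose, while its adjacent genes Ftl1 (0.05) and Nucb1 (−0.02) were not called. Medians around Sesn2 (0.09, between Med18 at 0.62 and Atpif1 at −0.01), Mdm2 (0.06, between Cpsf6 at −0.11 and Slc35e3 at −0.05), Cdkn1a (0.07, between Srsf3 at −0.13 and Ppil1 at 0.46) and Sesn1 (0.10, between Cep57l1 at −0.03 and Armc2 at −0.68) were near 0. The part of such regional shifts in the change of any single gene was not tested.

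**Figure D5:**
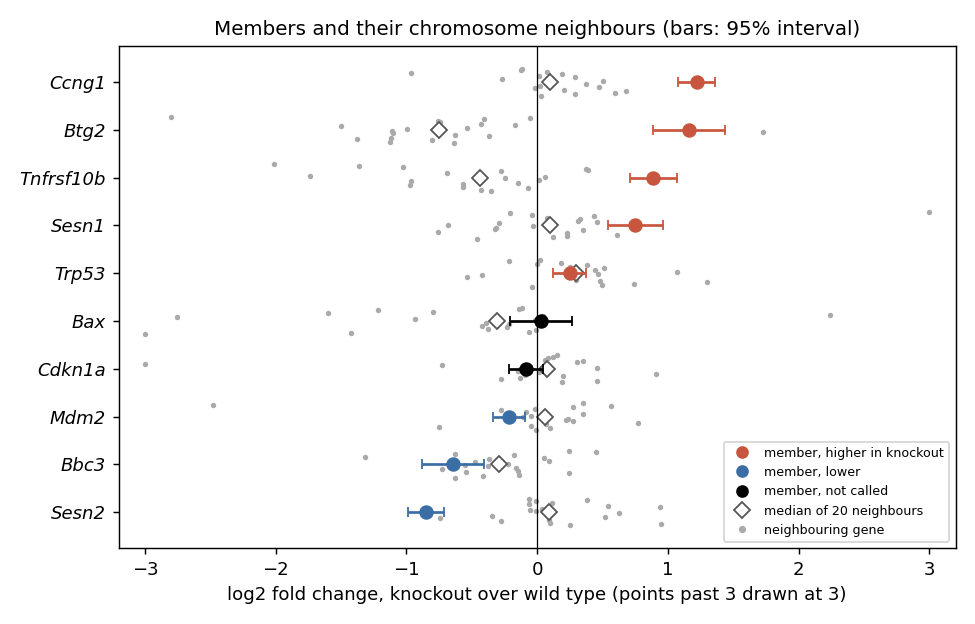
Log2 fold change of each of the 10 genes with its 95% interval (red higher, blue lower, black not called), its 20 chromosome neighbours (grey points) and their median (diamond); points past 3 are drawn at 3. Btg2 and Tnfrsf10b lie to the right of falling neighbours with medians of −0.75 and −0.44, while Trp53 lies on the median of its neighbours.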

How the data were processed

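Per the labels' protocols, TRIzol RNA (1 µg) went into TruSeq Stranded mRNA libraries. The authors deposited whole-number counts for each gene and, for the same genes, FPKM values. The FPKM equal the count divided by the library total and 1 length per gene, within 8.04e-05%. The build was GRCm39 and the tools were HTSeq, HISAT2, DESeq, Trimmomatic and Cufflinks, per the submitters' processing notes. The sources used here give no versions, annotation or strand setting. In GENCODE M21 (GRCm38) an opposite-strand model covers 7.68% of the exon bases of Cdkn1a, and a same-strand model 12.2% of those of Bax. How reads shared with these models, or with the processed pseudogene Trp53-ps, were counted is not given.

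Genes were kept with filterByExpr, scaled by TMM and tested with edgeR 4.0.16 (R 4.3.3) over 11972 genes, after a check on simulated data. A gene was called at an adjusted p under 0.05. The standard error is the log2 fold change over the square root of F. Alternatives used DESeq2 1.42.0 and limma 3.58.1. Fold changes are knockout over wild type, and CPM uses TMM-adjusted totals. The 10 genes, the lists and the tests were chosen with earlier results of these data known. Beyond the 10 genes, the text names Mdm4, Wrap53, Ppm1d, Trp63, Ccng2, Sesn3, Btg1, the FOXO factors, the targeted gene, adjacent genes, nearest profiles, and per list up to the 3 largest rises and falls among genes that passed the test and averaged 5 CPM or more. One gene that this rule names is not reported here. Chromosome-wide counts and the window of Mdm4 were added after the data were seen. Chromosome order came from the RefSeq table of GRCm38.p6 (11941 genes placed), a different build from the authors', so coordinates are given only for the promoter windows, whose sequences and positions are RefSeq's in GRCm38.p6.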

Additional observations from a re-analysis of the deposited data

How the results depend on the processing

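The 8 called genes kept direction and call in all 13 other fits, with adjusted p up to 0.036 (without wild-type replicate 2). Without knockout replicate 2, which carried muscle transcripts, Cdkn1a passed at a log2 fold change of −0.12 (range −0.12 to −0.0686 over the 6 fits that each left out 1 library), and Bax turned from 0.03 to −0.12 and passed (range −0.12 to 0.10). The count of p53 genes lower in knockout then went from 3 to 5, where 35.1% of all genes were lower, and over the 6 fits it lay between 3 and 5. Leaving out 1 library moved the count of all genes called between 6048 and 8586 and that of further p53 targets between 22 and 37. With the replicate number as a block, 6692 genes were called in place of 7136, and the calls of the 10 genes did not change. Deviations of same-numbered libraries from their group means correlated at −0.07, −0.09 and 0.02, and those of other pairs at −0.08 to 0.11. The numbers thus showed no sign of pairing, but 3 libraries per group are too few to exclude it. With 5 neighbours on each side the window medians of Cdkn1a and Sesn1 changed sign, to −0.0732 and −0.16, and that of Btg2 was −0.58. Counting error limits Btg2 most, at 9.09% of a single wild-type library's value.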

Other observations

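Genes around p21 were also counted. A mixed list held growth-arrest genes and inhibitors of cyclin-dependent kinases together with cyclins, their kinases and proliferation markers. Of its 15 tested genes 10 rose and 4 fell (median log2 fold change 0.38), where 30.5% of all genes rose and 29.2% fell. The rises included genes of cycling cells, named here after their values were seen: Mki67 (0.61), Ccna2 (0.54), Cdk2 (0.51), Top2a (0.49) and Ccnb1 (0.38). Not all such genes rose: the cyclin gene Ccnd1 fell (−0.32) and the kinase gene Cdk4 was not called (0.21), both also named after their values were seen. Gas6, a ligand first found in arrested fibroblasts, rose from 8.51 ± 1.70 to 18.1 ± 0.911 CPM (SD, n = 3 each), while Gas1 fell from 859 ± 37.1 to 577 ± 16.2 CPM and Gas7 from 446 ± 7.29 to 279 ± 39.9 CPM. Cyclin E1 (Ccne1), a partner of the kinase that p21 inhibits, rose by 0.87 ± 0.073 (SE) on the log2 scale. Among other inhibitors of cyclin-dependent kinases, Cdkn2c rose by 0.62 ± 0.068 and Cdkn1b fell by 0.39 ± 0.054, beside Cdkn1a, which was not called.

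The DREAM complex and the pocket proteins, which repress cell-cycle genes downstream of p21, counted 9 rises and 5 falls among 18 genes (median 0.16), a called share of 77.8% against 59.6% of all genes. E2f1 rose from 34.6 ± 1.64 to 62.6 ± 4.76 CPM, E2f2 by 0.60 ± 0.10 and the E2F partner gene Tfdp1 by 0.56 ± 0.056 on the log2 scale. Rb1, the retinoblastoma gene, fell from 38.0 ± 2.07 to 26.7 ± 4.04 CPM, the DREAM subunit gene Lin9 fell by 0.48 ± 0.11 and Tfdp2 by 0.45 ± 0.074. Among close relatives of the 10 genes, 3 rose and 4 fell of 11 tested (median −0.05), a called share of 63.6% against 59.6%. Bak1, the other effector beside Bax, rose by 0.20 ± 0.056.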
